A study of Mus musculus with 6 samples.

Results

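The genes described here are 47 heat shock and protein folding chaperones, cochaperones and their transcription factors, given as a list of symbols. No measured value enters the rule, but the list was drawn up with earlier results of these data known. Of these, 46 were matched by identifier to the 47643 genes of the count table and 44 had at least 10 reads over the 6 samples, so 44 of the 11877 genes tested were members. Hspa1a and Hspa1b fell below the 10 reads. Hspa14 could not be matched by identifier and was not analysed here. By place, 28 of the tested members act in the cytosol, 11 in the endoplasmic reticulum (ER), 3 in mitochondria, and 2, Hsf1 and Xbp1, are transcription factors.

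The samples were splenic CD4+ T cells of Tg4 Tiger Nr4a3-Tocky mice, sorted as Nr4a3-TimerBlue+TimerRed+. Tg4 is a transgenic T cell receptor for a myelin basic protein (MBP) peptide, and Tiger is an Il10 reporter that makes GFP. Tocky is a fluorescent Timer protein driven by Nr4a3, which is blue when new and turns red over time. With the 2 peptide doses described next, the study takes almost all cells with both colours to be responders to both. All mice had 80 μg of 4Y MBP peptide under the skin and 24 h later 800 μg of antibody into the peritoneum, followed after 30 min by a second dose of 8 μg of peptide, and spleens were taken 4 h after that. The 3 groups, with 2 samples each, differ in the antibody, which was isotype (a pool of rat immunoglobulins), anti-PD1 (clone 29F.1A12) or anti-Lag3 (clone CB97W as labelled). Every group, the isotype group included, carries the same alleles, and every group had both peptide doses. No sample without peptide and no heat-shocked sample was used here, so a level below is a level in activated cells. The samples are described as biological duplicates, and the study's methods say that cells of replicate mice were stained separately so that they could be sorted in parallel. Neither says how many mice gave each of these 6 samples, and p-values measure the spread between these samples only. The study's methods exclude a further replicate batch of 3 samples, sorted and processed together, as an outlier, and that batch was not used here.

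Chaperones bind unfolded or partly folded proteins and help them fold, hold them soluble or pass them on. In the cytosol, HSP40 proteins deliver clients to HSP70, which works with nucleotide exchange factors such as HSP110 and hands some clients to HSP90 through cochaperones, while the TRiC/CCT ring encloses others, tubulin and actin among them. HSF1 switches on the heat shock genes when unfolded protein builds up in the cytosol. In the ER, BiP (Hspa5), GRP94 (Hsp90b1), the lectins calnexin and calreticulin and the disulfide isomerases fold secreted and membrane proteins, and XBP1, ATF6 and ATF4 raise these genes in the unfolded protein response. Activated T cells make much protein, and HSP90 with CDC37 is known to hold several of their kinases, LCK among them.

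Elements of the unfolded protein and heat shock responses were searched by their letters in the promoters of the members. Promoters from 250 bases before to 50 bases after the start site were taken from RefSeq (GRCm38.p6, the build of the counts), and 39 of the 47 members had one, out of 27025 genes in all. The members with none in that table were Cct4, Dnajc2, Hsf1, Hsp90aa1, Hsp90ab1, Hspa8, Hspa9 and St13. An ER stress element was searched as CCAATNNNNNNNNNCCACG on both strands. It was found in 6 of the 11 ER members (Calr, Canx, Dnajc3, Hsp90b1, Hspa5 and Pdia6), in 0 of the 25 cytosolic members with a promoter, and in 0.137% of all promoters. The parts of the element are common by themselves. CCAAT, on either strand, was in all 11 ER promoters, 14 of 25 cytosolic ones and 41.1% of all, and CCACG in 10 of 11, 14 of 25 and 35.5%. Dnajb9, Dnajb11, P4hb, Pdia3 and Pdia4 had no match to the whole element. The stretches with the whole element are shown because it was found among ER and not among cytosolic members. Each is written on the strand of its gene with the element in capitals and 15 bases on either side. Where the capitals begin with CGTGG the element lies on the other strand, and Hsp90b1 holds 2 elements.

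Hspa5, chr2:34772010-34772058, plus strand: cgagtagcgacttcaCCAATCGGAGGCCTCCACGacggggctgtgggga
Hsp90b1, chr10:86705623-86705671, minus strand: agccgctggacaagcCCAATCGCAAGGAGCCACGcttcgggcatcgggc
Hsp90b1, chr10:86705518-86705566, minus strand: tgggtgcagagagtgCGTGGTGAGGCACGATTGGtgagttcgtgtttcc
Calr, chr8:84847060-84847108, minus strand: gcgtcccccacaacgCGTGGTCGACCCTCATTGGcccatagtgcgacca
Canx, chr11:50325785-50325833, minus strand: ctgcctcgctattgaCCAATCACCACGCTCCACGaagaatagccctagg
Pdia6, chr12:17266476-17266524, plus strand: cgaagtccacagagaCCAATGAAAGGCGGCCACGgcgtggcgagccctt
Dnajc3, chr14:118937812-118937860, plus strand: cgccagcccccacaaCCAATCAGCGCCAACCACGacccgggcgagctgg

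A heat shock element was searched as GAANNTTCNNGAA or TTCNNGAANNTTC, 3 alternating copies of the unit that HSF1 binds, on both strands. It was found in 5 of the 39 promoters (Chordc1, Dnajb6, Hspd1, Hspe1 and Hsph1) and in 0.662% of all promoters. By place, these were 3 of 25 cytosolic, 0 of 11 ER and 2 of 2 mitochondrial promoters. The stress genes Bag3, Dnaja1, Dnajb1, Hspa1a and Hspa1b each had a promoter and no match. In Chordc1 and Hsph1 it lay at or after the start site. Hspd1 and Hspe1, the mitochondrial HSP60 ring and its lid, lie head to head on opposite strands, and their 2 overlapping elements are the same bases, shown once on the strand of Hspe1 beside that of Dnajb6, an HSP40. A match of letters is a description and not a bound site, and a window without a match says only that these letters are not in it.

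Hspe1, chr1:55088044-55088091, plus strand: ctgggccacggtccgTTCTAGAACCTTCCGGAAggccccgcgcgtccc
Dnajb6, chr5:29735837-29735879, plus strand: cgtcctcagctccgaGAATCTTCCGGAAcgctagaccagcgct

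Total counts ran from 2107715 to 2648920 per sample, and the members together took 1.91% to 2.14% of them. Levels are given as CPM, the share of a sample's reads on a fixed scale, after TMM scaling, which sets library sizes so that most genes do not change. The libraries were made from transcript ends, a tag per transcript, so CPM needs no division by length when genes are compared. The CD4 T cell markers (Cd3d, Cd3e, Cd3g, Cd4, Lck, Trac and Cd5) were present in every sample, at a summed 1138 to 1428 CPM by raw totals. The sum hides differences between genes. After TMM scaling Cd5 was at 42.4 and 41.5 CPM with isotype, 71.4 and 96.9 with anti-PD1 and 65.8 and 63.9 with anti-Lag3. Traces of other cells were seen, and their summed CPM below are again by raw totals. The 10 B cell and plasma cell markers summed to 113.5 and 130.7 CPM with isotype, 66.4 and 52.2 with anti-PD1 and 86.2 and 126.1 with anti-Lag3, mostly Ighm, with Cd79a at 0 reads in all 6 samples. The 5 erythroid markers summed to 44.3 and 40.4 CPM with isotype, 14.7 and 37.3 with anti-PD1 and 21.98 and 47.2 with anti-Lag3. The 10 macrophage and dendritic cell markers summed to 78.3 and 57.9 CPM with isotype, 22.8 and 42.7 with anti-PD1 and 41.8 and 40.8 with anti-Lag3. The 2 CD8 T cell markers (Cd8a and Cd8b1) summed to 52.5 and 48.0 CPM with isotype, 34.2 and 30.2 with anti-PD1 and 34.5 and 33.2 with anti-Lag3. In bulk samples such as these, fewer cells of a type and less RNA per cell cannot be told apart.

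No member differed between the antibodies at an adjusted p under 0.05, and for the abundant members the 95% intervals of the fold change were narrow. With edgeR's quasi-likelihood test, adjusted over all 11877 genes by the Benjamini-Hochberg method, 0 of 44 members were called between anti-PD1 and isotype, where 0.901% of all genes were called. For anti-Lag3 over isotype the count was 0 of 44 (0.0421% of all genes), for anti-PD1 over anti-Lag3 it was 0 of 44 (0.303%), and 0 of 44 for any difference among the 3 groups (0.859%). A count of 0 among 44 is near these background shares and is no result about the members. The intervals say more, but they rest on 2 samples per group, with each gene's spread estimated partly from all genes. Leaving out 1 sample can move a member beyond its interval. For anti-Lag3 over isotype, the log2 fold change of Hsph1 was -0.33 without anti-Lag3 2 and 0.39 without anti-Lag3 1. Its 95% interval with both samples was -0.24 to 0.40. Of the 38 members with a mean of at least 50 CPM, 37 had a 95% interval that stayed within 1.5-fold either way for anti-PD1 over isotype, 36 did for anti-Lag3 over isotype, and all 38 did for anti-PD1 over anti-Lag3. Over these 38 genes the outermost limits were 0.651-fold and 1.497-fold for anti-PD1 over isotype, 0.654-fold and 1.54-fold for anti-Lag3 over isotype, and 0.708-fold and 1.39-fold for anti-PD1 over anti-Lag3. The other 6 (Bag3, Dnajb1, Dnajb4, Dnajb9, Hsf1 and Xbp1) had wider intervals, none within 1.5-fold in any of the 3 comparisons. The plot of fold changes shows both kinds.

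**Figure D1:**
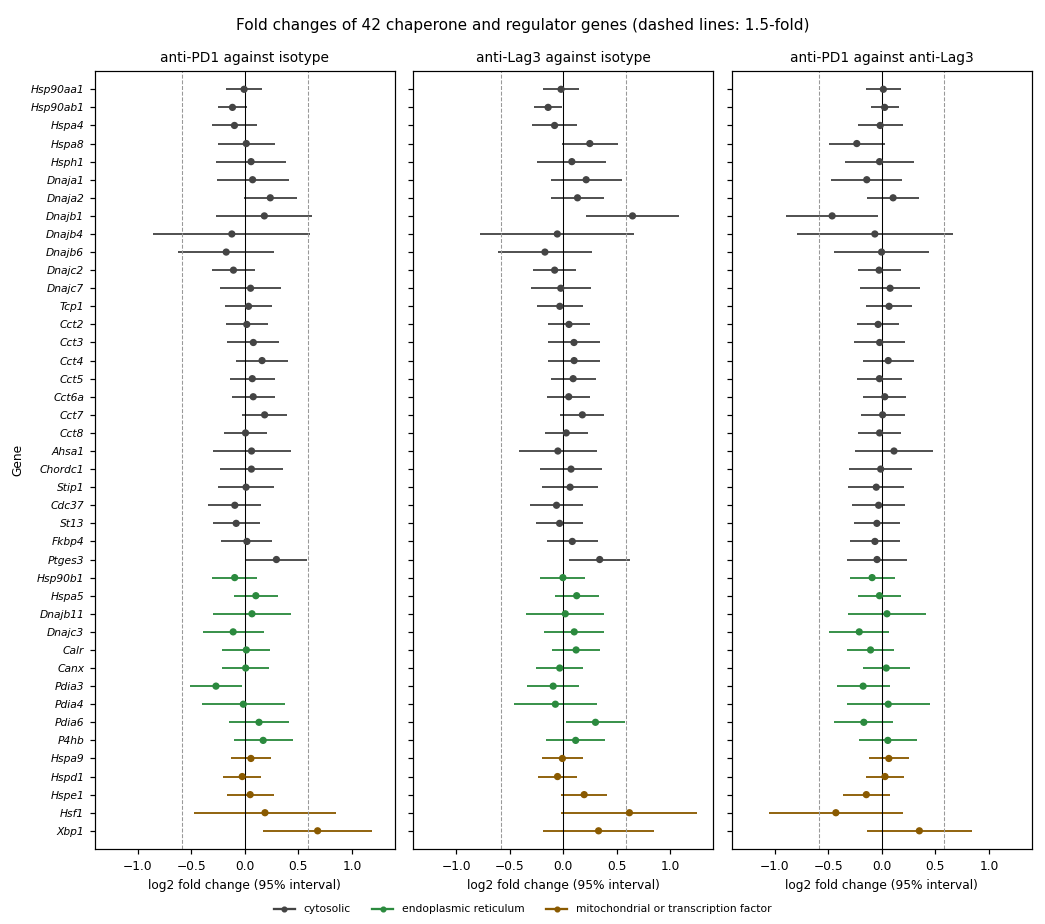
Log2 fold change of 42 members with its 95% interval from edgeR, in 3 panels for the 3 comparisons (2 samples per group), with cytosolic genes in black, ER genes in green and mitochondrial genes and transcription factors in brown, and dashed lines at 1.5-fold. Bag3 and Dnajb9, at means of 2.25 and 1.91 CPM, are left out. Most intervals span 0 and lie inside the dashed lines. Those of Dnajb1, Dnajb4, Hsf1 and Xbp1 cross them. So do those of Dnajb6 for both antibodies over isotype and that of Ptges3 for anti-Lag3 over isotype.

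Without adjustment, 3 of 44 members had an edgeR p under 0.05 between anti-PD1 and isotype (Ptges3, Pdia3 and Xbp1), against 8.12% of all genes. For anti-Lag3 over isotype there were 4 (Hsp90ab1, Dnajb1, Ptges3 and Pdia6), against 5.96%, for anti-PD1 over anti-Lag3 there was 1 (Dnajb1), against 6.53%, and 3 among the 3 groups (Dnajb1, Ptges3 and Xbp1), against 7.57%. As shares of the members these are 6.82%, 9.09%, 2.27% and 6.82%, so only the share for anti-Lag3 over isotype lies above that of all genes. DESeq2 also called 0 of 44 in each of the 4 tests. It called 0.606%, 0.00842%, 0.135% and 0.488% of all 11877 genes in the same order. To 1612, 0, 7829 and 2073 of these genes it gave no adjusted p, so a member among them could not be called. The unadjusted p of DESeq2 was under 0.05 for 1, 2, 0 and 0 members, or 2.27%, 4.55%, 0% and 0%. The shares of all genes were 4.08%, 2.34%, 2.8% and 3.32%.

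The median difference was small for members of both compartments. Between anti-PD1 and isotype the median log2 fold change was 0.04 over the 28 cytosolic members and 0.01 over the 11 ER members. For anti-Lag3 over isotype it was 0.06 and 0.10, and for anti-PD1 over anti-Lag3 it was -0.02 and -0.02. Over all genes tested each of the 3 medians was 0.00. Both samples of a group lay above both of the other for 11 members with anti-PD1 against isotype and below for 6, or 25.0% and 13.6%, against 19.2% and 18.2% of all genes. With anti-Lag3 against isotype the counts were 13 and 3, or 29.5% and 6.82%, against 17.3% in each direction. With anti-PD1 against anti-Lag3 they were 5 and 4, or 11.4% and 9.09%, against 18.2% and 17.7%. The anti-PD1 and anti-Lag3 comparisons share the isotype samples, and the last comparison shares its samples with both.

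The HSP90 genes were the most abundant members. Hsp90ab1 (ENSMUSG00000023944, chr17:45567775-45573271), the constitutive cytosolic HSP90, was the gene of rank 6 of all 11877, at 6665 and 6450 CPM with isotype, 6061 and 6043 with anti-PD1, and 5607 and 6276 with anti-Lag3. All 4 anti-PD1 and anti-Lag3 samples lay below both isotype samples. The log2 fold change was -0.12 (SE 0.06) for anti-PD1 and -0.14 (SE 0.06) for anti-Lag3, with edgeR adjusted p of 0.697 and 0.800. Hsp90aa1 (chr12:110690605-110702728), the more inducible form, was at 1511 and 1623 CPM with isotype, 1554 and 1565 with anti-PD1, and 1455 and 1633 with anti-Lag3. Its groups overlapped, and the highest sample was 1.12-fold above the lowest.

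The stress-inducible HSP70 genes were close to absent. Hspa1a (chr17:34969190-34972156) had 1 read in all, in the isotype 2 sample, and Hspa1b (chr17:34956436-34959238) had 2 reads, 1 in isotype 2 and 1 in anti-Lag3 1. A count of 0 in a sample still allows up to 3 counts, or 1.13 to 1.42 CPM by raw totals, for counting error only. The pair are near-identical copies, so reads that fit both may not have been counted for either, which was not tested. The constitutive Hspa8 (chr9:40800984-40810087) was at 314 and 307 CPM with isotype, 357 and 270 with anti-PD1, and 301 and 435 with anti-Lag3. A single sample, anti-Lag3 2, stood above the other 5. Hsph1 (chr5:149614287-149636376), the HSP110 exchange factor whose promoter holds a heat shock element, was at 136 and 162 CPM with isotype, 168 and 143 with anti-PD1, and 118 and 196 with anti-Lag3. The anti-Lag3 samples were its lowest and its highest. Hspa4, the other HSP110-type gene, averaged 552 CPM with log2 fold changes of -0.10 and -0.08 for anti-PD1 and anti-Lag3 over isotype.

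Dnajb1, the HSP40 that is itself induced through HSF1, had the smallest unadjusted p of any member in both comparisons with anti-Lag3. Dnajb1 (chr8:83608193-83612653) was at 37.2 and 37.0 CPM with isotype, 41.7 and 42.5 with anti-PD1, and 50.2 and 65.7 with anti-Lag3. The 3 groups did not overlap, with isotype lowest and anti-Lag3 highest. The log2 fold change for anti-Lag3 over isotype was 0.65 (SE 0.21), with an unadjusted p of 0.00435 and an adjusted p of 0.642 by edgeR. For anti-PD1 over anti-Lag3 it was -0.46 (SE 0.21), with an adjusted p of 0.721, and it was -0.26 without anti-Lag3 2 and -0.64 without anti-Lag3 1. For anti-PD1 over isotype it was 0.18 (SE 0.22). These values rest on 79 to 177 reads per sample. Hsf1 (chr15:76477422-76501913) had 35 to 72 reads and was at 18.4 and 14.1 CPM with isotype, 20.6 and 16.4 with anti-PD1, and 22.8 and 26.7 with anti-Lag3. Both anti-Lag3 samples of Hsf1 lay above the other 4, at a log2 fold change over isotype of 0.62 (SE 0.31) and an edgeR adjusted p of 0.843.

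The other 6 tested cytosolic HSP40 genes averaged from 14.4 CPM (Dnajb4) to 525 CPM (Dnajc2, which works at the ribosome). Their log2 fold changes ran from -0.17 (Dnajb6) to 0.24 (Dnaja2) for anti-PD1 over isotype and from -0.17 (Dnajb6) to 0.21 (Dnaja1) for anti-Lag3 over isotype. The lowest adjusted p of the 7 HSP40 genes was 0.650 and 0.642 in these comparisons by edgeR. Dnajb6, whose promoter holds a heat shock element, had a negative value in both.

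The 8 TRiC/CCT genes, which encode the subunits of a single complex, averaged from 235 CPM (Cct4) to 586 CPM (Cct8). All 8 had a positive log2 fold change for anti-PD1 over isotype, between 0.01 (Cct8) and 0.18 (Cct7). For anti-Lag3 over isotype 7 of 8 did, between -0.03 (Tcp1) and 0.18 (Cct7). Of all 11877 genes, 6015 and 5946 were positive in these comparisons, which share the isotype samples. None was called, with a lowest edgeR adjusted p of 0.697 and 0.876. Between anti-PD1 and anti-Lag3 their log2 fold changes lay between -0.03 and 0.07. Tcp1, Cct6a and Cct8 overlap Mrpl18, Psph and Usp16 on the genome, and the strand setting of the counting is not given in the sources used here.

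Among the 8 cochaperones, Ptges3 (chr10:128058954-128077272), which encodes the p23 protein that stabilises closed HSP90, had the smallest unadjusted p in both comparisons with isotype. It was at 145 and 187 CPM with isotype, 225 and 184 with anti-PD1, and 182 and 238 with anti-Lag3. The isotype 1 sample was lowest, and isotype 2 lay above the lower anti-PD1 sample and the lower anti-Lag3 sample. The log2 fold change was 0.29 (SE 0.14) for anti-PD1 and 0.34 (SE 0.14) for anti-Lag3 over isotype, with edgeR adjusted p of 0.596 and 0.744. The value for anti-Lag3 turned on single samples, at 0.14 without anti-Lag3 2, 0.51 without anti-Lag3 1, 0.17 without isotype 1 and 0.54 without isotype 2. The value for anti-PD1 did too. The log2 difference was 0.64 for anti-PD1 1 over isotype 1 and -0.03 for anti-PD1 2 over isotype 2. Bag3, an HSP70 exchange factor strongly induced by heat, had 2, 7, 6, 4, 1 and 13 reads in isotype 1 and 2, anti-PD1 1 and 2, and anti-Lag3 1 and 2, too few to compare. The other 6 (Ahsa1, Cdc37, Chordc1, Fkbp4, St13 and Stip1) averaged from 66.1 to 338 CPM, with log2 fold changes from -0.09 (Cdc37) to 0.06 (Ahsa1) for anti-PD1 and from -0.06 (Cdc37) to 0.08 (Fkbp4) for anti-Lag3 over isotype.

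**Figure D2:**
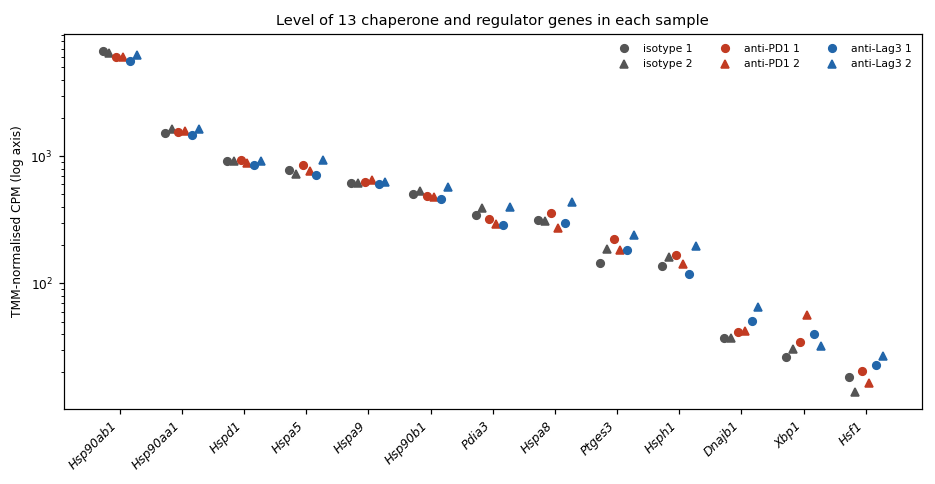
TMM-normalised CPM on a log axis of 13 members in each of the 6 samples, coloured by antibody, with circles for replicate 1 and triangles for replicate 2. The groups are drawn apart for Dnajb1, whose 2 anti-Lag3 samples are at 50.2 and 65.7 CPM, and mix for most other genes.

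In the ER, BiP was the most abundant chaperone. Hspa5 (chr2:34771970-34777547), which holds unfolded protein and keeps the stress sensors inactive, was at 778 and 724 CPM with isotype, 846 and 767 with anti-PD1, and 708 and 927 with anti-Lag3. Its anti-Lag3 samples were the lowest and the highest of the 6. The log2 fold change over isotype was 0.10 (SE 0.10) for anti-PD1 and 0.12 (SE 0.10) for anti-Lag3, with edgeR adjusted p of 0.892 and 0.937. Hsp90b1 (chr10:86690209-86705509), which encodes the HSP90 of the ER needed for several integrins and Toll-like receptors, was at 505 and 530 CPM with isotype, 488 and 481 with anti-PD1, and 459 and 572 with anti-Lag3. Both anti-PD1 samples lay below both isotype samples, at a log2 fold change of -0.10 (SE 0.10).

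Pdia3 (chr2:121413775-121438687), the disulfide isomerase that works with calnexin and calreticulin and in loading of MHC class I, had the lowest anti-PD1 difference among members. It was at 346 and 389 CPM with isotype, 319 and 292 with anti-PD1, and 288 and 400 with anti-Lag3. Both anti-PD1 samples lay below both isotype samples, at a log2 fold change of -0.27 (SE 0.12), with an unadjusted p of 0.0329 and an adjusted p of 0.536 by edgeR. The other isomerases (P4hb, Pdia4 and Pdia6) averaged from 69.8 to 158 CPM, at log2 fold changes from -0.01 to 0.17 for anti-PD1 and from -0.07 to 0.30 for anti-Lag3 over isotype. Calr and Canx averaged 476 and 416 CPM, with log2 fold changes of 0.01 and 0.01 for anti-PD1 and 0.12 and -0.03 for anti-Lag3. Of the ER HSP40 genes, Dnajb11 and Dnajc3 averaged 66.9 and 130 CPM. Dnajb9, a target of XBP1, had only 2, 1, 3, 10, 3 and 9 reads in the order above, too few to compare.

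Xbp1, the transcription factor of the unfolded protein response and of plasma cells, had the smallest adjusted p of any member. Xbp1 (chr11:5520659-5525893) was at 26.4 and 30.6 CPM with isotype, 34.5 and 56.4 with anti-PD1, and 39.6 and 32.3 with anti-Lag3. All 4 anti-PD1 and anti-Lag3 samples lay above both isotype samples. The log2 fold change for anti-PD1 over isotype was 0.68 (SE 0.25), with an unadjusted p of 0.0100 and an adjusted p of 0.324 by edgeR, and it was 0.27 without the anti-PD1 2 sample. Counts do not separate spliced from unspliced Xbp1. Of the 7 B cell and plasma cell markers tested, 2 were positive and 5 negative for anti-PD1 over isotype, and 2 were called lower (Igkc and Ighm). Both calls were lost without anti-PD1 2 (edgeR adjusted p of 0.156 for Igkc and 0.339 for Ighm), and that of Ighm also without isotype 2 (0.216) and with DESeq2 (0.0738). The part of these cells in the values of Xbp1 was not tested. In the macrophage and dendritic cell list, C1qa was called lower with anti-PD1 than isotype (log2 fold change -2.59, edgeR adjusted p of 0.0266), on 3 to 29 reads per sample. Of the 9 genes tested there, 2 were positive and 7 negative. In the CD4 T cell list, Cd5 was called higher (1.01, edgeR adjusted p of 0.00154), with 2 of 7 genes positive and 5 negative.

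The 3 mitochondrial chaperones were all abundant. Hspd1 (chr1:55077835-55088243) was at 923 and 921 CPM with isotype, 930 and 882 with anti-PD1, and 856 and 919 with anti-Lag3, and the highest sample was 1.09-fold above the lowest. Hspa9, the mitochondrial HSP70, was at 620 and 612 CPM with isotype, 629 and 652 with anti-PD1, and 600 and 624 with anti-Lag3. Both anti-PD1 samples lay above the other 4 for Hspa9, and its highest sample was 1.09-fold above its lowest. Hspe1 averaged 450 CPM, its highest sample was 1.33-fold above its lowest, and it had log2 fold changes of 0.05 and 0.19 for anti-PD1 and anti-Lag3 over isotype. Hspd1 and Hspe1 overlap on opposite strands at the start of each gene, and without the strand setting reads in that overlap may be mixed. The libraries tag the 3′ ends of transcripts, away from the overlap, and how many reads fall in it was not tested. The pseudogene Hspd1-ps3 had 160 reads against 12848 for Hspd1.

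Across the members, the 2 anti-Lag3 samples lay apart from each other. Anti-Lag3 2 was the highest of the 6 samples for 21 of 44 members (47.7%), where it was the highest for 17.3% of all genes. Anti-Lag3 1 was the lowest for 18 of 44 (40.9%), against 15.3% of all genes. Among genes of at least 50 CPM the shares were 47.4% of 38 members against 20.7% of all 3058 genes for the highest, and 44.7% against 20.8% for the lowest. The median log2 difference of anti-Lag3 2 over anti-Lag3 1 was 0.32 over the ER members, of which 10 of 11 were positive, and 0.15 over the cytosolic members. It was 0.04 over all genes of at least 50 CPM. Over the ER members the same median was 0.07 between the isotype samples and -0.10 between the anti-PD1 samples. Over the cytosolic members it was 0.03 and -0.01. Over all members it was 0.16 for anti-Lag3, 0.04 for isotype and -0.02 for anti-PD1.

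**Figure D3:**
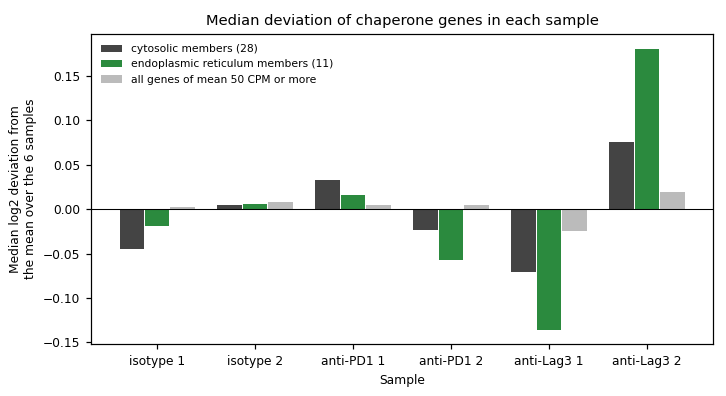
Median over genes of the log2 deviation from each gene's mean over the 6 samples, as bars per sample for 28 cytosolic members (black), 11 ER members (green) and all genes of at least 50 CPM (grey). ER members are at -0.14 in anti-Lag3 1 and 0.18 in anti-Lag3 2, the widest gap between samples of a group.

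The gene-by-gene values show how the gap between the anti-Lag3 samples was spread over the members. The log2 difference of anti-Lag3 2 over 1 was 0.72 for Hsph1, 0.53 for Hspa8, 0.49 for Pdia4, 0.47 for Pdia3, 0.40 for Calr, 0.39 for Hspa5, 0.32 for Hsp90b1 and 0.28 for Canx. It was 0.04 for Dnajc3, 0.03 for Pdia6, 0.03 for Dnajb11 and -0.02 for P4hb. The 6 ER genes with an ER stress element in their promoter were spread over both sets, and so were those without. Among other cytosolic members, leaving out Bag3 with its few reads, the difference was 0.48 for Dnajb6, 0.39 for Dnajb1, 0.39 for Ptges3 and 0.38 for Stip1. The lowest cytosolic value was -0.16 (Chordc1), and 20 of the 28 cytosolic members were positive. The TRiC/CCT genes had a median of 0.08 and ran from -0.15 (Cct7) to 0.36 (Cct3). Anti-Lag3 2 also had the largest total count and more of the B cell, plasma cell and erythroid markers than anti-Lag3 1, as given above, and their part in the difference was not tested.

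**Figure D4:**
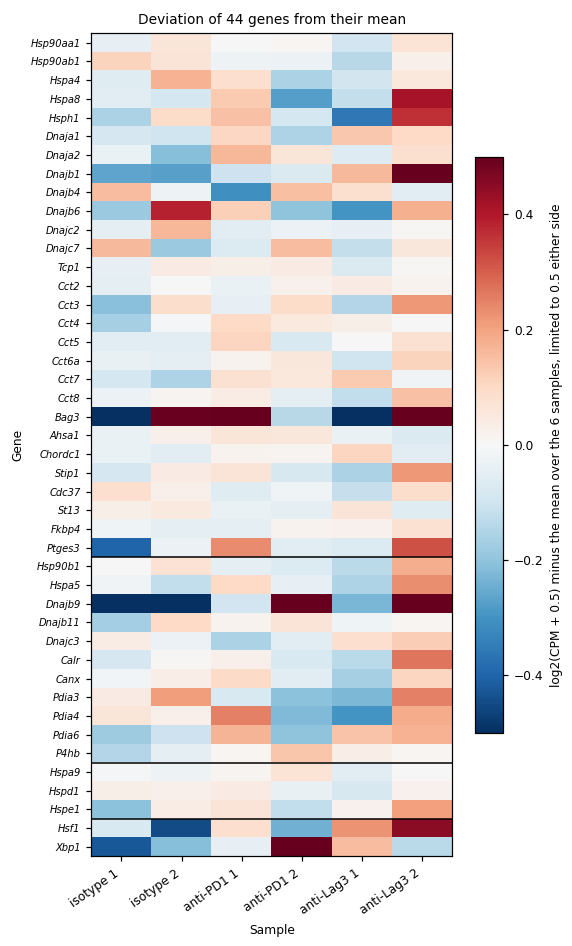
Deviation of log2(CPM + 0.5) from each gene's mean for 44 members (rows, with lines between cytosolic, ER and mitochondrial genes and transcription factors) in the 6 samples (columns), red above and blue below the mean, colours limited to 0.5 either side. The anti-Lag3 2 column is mostly red and the anti-Lag3 1 column mostly blue, most of all among ER genes. Bag3 and Dnajb9 have 1 to 13 reads per sample.

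The anti-Lag3 comparisons turn on which of these samples is used. Without anti-Lag3 1, Hspa8 was lower with anti-PD1 than with anti-Lag3 at a log2 fold change of -0.47 and an edgeR adjusted p of 0.0451, where 0.497% of all genes were called, and it was the member called among the 3 groups (adjusted p of 0.0158, against 1.56% of all genes). Without anti-Lag3 2 the difference was 0.05, the other way, with an adjusted p of 0.994. In both fits the remaining anti-Lag3 sample is assumed to vary like the other groups. With both samples the log2 fold change of Hspa8 was -0.23 (SE 0.13), with an adjusted p of 0.798. The ER median for anti-Lag3 over isotype, 0.10 with both samples, was -0.08 without anti-Lag3 2. The log2 fold change of Dnajb1 for anti-Lag3 over isotype was 0.44 without anti-Lag3 2 and 0.82 without anti-Lag3 1, with edgeR adjusted p of 0.931 and 0.235.

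Of 33 further cytosolic chaperones, 30 further ER folding and quality control genes, 7 further mitochondrial folding genes and 11 immediate early genes tested, 0 were called in any of the 4 tests by edgeR. Their unadjusted p was under 0.05 for 3, 3, 2 and 3 genes between anti-PD1 and isotype, and for 3, 1, 1 and 3 for anti-Lag3 over isotype. For anti-PD1 over anti-Lag3 it was so for 5, 1, 2 and 2 genes, and among the 3 groups for 3, 2, 2 and 5. As shares these ran from 3.33% to 45.5%, the highest being the immediate early genes among the 3 groups (5 of 11), against the 5.96% to 8.12% of all genes given above. Of the 8 sensors and factors of the unfolded protein response, 1 was called, Atf4, the factor translated when protein synthesis is cut back. Atf4 was at 623 and 593 CPM with isotype, 594 and 847 with anti-PD1, and 488 and 414 with anti-Lag3. Both anti-Lag3 samples lay below the other 4. The log2 fold change of anti-PD1 over anti-Lag3 was 0.68 (SE 0.11), with an edgeR adjusted p of 0.00141, and it was called among the 3 groups. Over isotype it was 0.25 (SE 0.11) for anti-PD1 and -0.43 (SE 0.11) for anti-Lag3, neither called. The call for anti-PD1 over anti-Lag3 was lost without anti-PD1 2, the sample at 847 CPM, where the log2 fold change was 0.39 with an adjusted p of 0.690, and DESeq2 did not make it (adjusted p of 0.323).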

How the data were processed

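The 6 samples formed 3 groups of 2. From QuantSeq 3′ libraries, the authors removed adapters with Bbduk, mapped to GRCm38 using STAR 2.5.2a and summed reads over genes with HTSeq-count. The deposited raw counts are whole numbers without normalization, and the annotation release and strand setting are not given in the sources used here. The deposited rlog values were not used.

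Samples of a group were compared by a chi-square over genes, which per degree of freedom was 2.65 to 3.29, more than counting error gives. All genes that reached 10 reads in total were fitted with edgeR 4.0.16 (R 4.3.3, TMM, quasi-likelihood, legacy default), with Benjamini-Hochberg adjustment and a threshold of 0.05. Intervals are 95%. DESeq2 1.42.0 was an alternative, with other scalings and filters, each sample left out, and a replicate block. The fits were tested on simulated data. Levels of lists use log2(CPM + 0.5). Positions are from GENCODE annotation of GRCm38 and promoters from RefSeq. Figures were drawn with matplotlib 3.10.9.

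The members and lists were chosen with earlier results of these data known. Named genes were the 5 most abundant members, the main stress genes of each compartment, any called, and the 2 with the smallest p in each comparison; other members named with values were chosen after their values were seen.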

Additional observations from a re-analysis of the deposited data

How the results depend on the processing

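Of 51 counts of members called under other settings, 49 were 0, with both tools, every scaling and every filter tried. The exceptions were the 2 fits without anti-Lag3 1 described above, so that the range with a sample left out was 0 to 1 for anti-PD1 against anti-Lag3 and 0 to 1 for any difference among the 3 groups. With a sample left out, the cytosolic median ran from -0.0461 to 0.0878 for anti-Lag3 against isotype and from -0.0662 to 0.0772 for anti-PD1 against anti-Lag3, and the ER median from -0.0769 to 0.139 and from -0.1986 to 0.0756. Hspa8 for anti-PD1 against anti-Lag3 ran from -0.4701 to 0.0502, turning without anti-Lag3 2. For anti-PD1 against isotype the cytosolic median ran from -0.001 to 0.0668 and the ER median from -0.0596 to 0.079 with a sample left out. These ranges cross 0 too. The other settings kept each median within the spread between replicates, which was 0.067 for cytosolic and 0.133 for ER members over the 3 groups. The methods describe the excluded replicate as 3 samples handled as a batch, but no source used here says that the replicate numbers kept mark such batches. Samples with the same number did not deviate together (correlations of deviations of 0.04, 0.05 and -0.05 over 5491 genes), and the replicate block gave 0 calls of members, with an ER median of 0.10 for anti-Lag3 against isotype. Depth limits Bag3, Dnajb9, Hspa1a and Hspa1b most.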
